A study of Mus musculus with 21 samples.

Results

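The 9 genes described here are the CC chemokines that attract monocytes and 2 of the receptors that read them: the ligands Ccl2, Ccl7, Ccl8, Ccl12, Ccl3, Ccl4 and Ccl5 and the receptors Ccr1 and Ccr2. They were taken by gene symbol, 1 entry each, from the 55491 genes of each deposited count table. All 9 passed the filter on low counts in both tissues, which left 19101 genes to test in skin and 16173 in lymph nodes. The study asked what chronic interferon κ from the epidermis does to skin and to skin-draining lymph nodes (SDLNs), using Ifnk transgenic (Ifnk TG) mice and wild-type (WT) BALB/c controls. Bulk polyA RNA was sequenced from 21 samples, 9 of skin and 12 of inguinal SDLNs.

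The skin came from 12-month-old mice. It fell into 3 groups without UV: Ifnk TG lesional skin (L, 4 libraries), Ifnk TG nonlesional skin (NL, 2 libraries) and WT skin (3 libraries, nonlesional by label). The nodes formed 4 groups of 3 libraries: WT and Ifnk TG, each untreated (NoTx) or exposed to UVB (UV). Mice shaved on the back were given UVB at 250 mJ/cm2 and 310 nm on 3 days a week for 2 weeks, and nodes were taken after 2 further weeks. The age of the node mice is not in the labels. In the TG mice a keratin 14 promoter, active in keratinocytes, drives Ifnk; the line was made on C57BL/6 with a PiggyBac vector and then backcrossed to BALB/c, so TG and WT mice differ in origin as well as in the transgene. No label ties a library to 1 animal, so the p-values here measure the spread between libraries.

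Chemokines are small secreted proteins that bind heptahelical receptors coupled to inhibitory G proteins and draw leukocytes along their gradient. Ccr2, on classical inflammatory monocytes, is the receptor that lets these cells leave the bone marrow and enter inflamed tissue; its ligands Ccl2 (MCP-1), Ccl7 (MCP-3) and Ccl12 (MCP-5), together with the related Ccl8 (MCP-2 by name, a Ccr8 ligand in the mouse), form the monocyte chemoattractant protein group. Ccl3 (MIP-1α), Ccl4 (MIP-1β) and Ccl5 (RANTES) are the macrophage inflammatory protein group with its relative. Ccl3 and Ccl5 bind Ccr1, and T cells, NK cells, neutrophils and activated macrophages are among the cells that make this group.

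In GRCm38 (GENCODE M21 annotation) the 7 ligand genes lie on chromosome 11 in 2 neighbouring clusters. Ccl2 (82035571 to 82037453), Ccl7 (82045712 to 82047525), Ccl12 (82101845 to 82103400) and Ccl8 (82115185 to 82116799) follow each other on the plus strand. Ccl5 (83525778 to 83530518, minus strand), Ccl3 (83647844 to 83649355, minus strand) and Ccl4 (83662584 to 83664683, plus strand) lie further along. The receptors are on chromosome 9, Ccr1 at 123962124 to 123968692 (minus strand) and Ccr2 at 124101950 to 124113557 (plus strand). The ligand genes are relatives: by global alignment of their longest coding sequences, 70.5% of aligned bases were identical between Ccl8 and Ccl12, 69.6% between Ccl3 and Ccl4 and 57.5% between Ccl7 and Ccl5. This likeness was too low to share reads: no run of 75 bases in a ligand transcript or in Ccr1 occurred in another gene. In Ccr2, 78 of 6734 such runs (1.16%) also occurred elsewhere, so a small part of its reads could be shared. No member's exons overlapped those of another gene.

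The study's own primer pair for Ccl2, named Mcp1, is shown because it ties that older name to the gene counted here. Both primers were found in transcripts of 1 gene, Ccl2, among 141767 transcripts, and they span 249 bases of its main transcript, which start within the coding sequence.
Mcp1 forward: aggtccctgtcatgcttctg
Mcp1 reverse: tctggacccattccttcttg

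The 150 bases before the RefSeq start site (GRCm38.p6), 5′ to 3′ on the gene's strand, are shown for 1 ligand called higher in lesions (Ccl3) and for 2 that were not (Ccl8 and Ccl12). Capitals mark TATAAA, the letters of a TATA box, which were searched for on both strands after the sequences had been seen. Only these exact letters were searched for, so near variants are not marked. The RefSeq start of Ccl3 lies before its GENCODE start, while those of Ccl8 and Ccl12 are at theirs.
Ccl3, chr11:83649379-83649528, minus strand: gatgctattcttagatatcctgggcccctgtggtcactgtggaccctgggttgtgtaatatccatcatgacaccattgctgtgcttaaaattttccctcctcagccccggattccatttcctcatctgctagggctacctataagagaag
Ccl8, chr11:82115035-82115184, plus strand: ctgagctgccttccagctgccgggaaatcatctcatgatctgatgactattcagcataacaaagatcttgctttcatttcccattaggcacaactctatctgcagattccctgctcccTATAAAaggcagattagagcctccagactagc
Ccl12, chr11:82101695-82101844, plus strand: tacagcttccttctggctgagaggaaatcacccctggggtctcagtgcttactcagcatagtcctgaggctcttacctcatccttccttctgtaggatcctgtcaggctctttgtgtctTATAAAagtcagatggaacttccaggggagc

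TATAAA begins 32 bases before the start in Ccl8 and 31 before it in Ccl12, and it was in 13.6% of 32851 promoter windows of 300 bases (250 before the start and 50 after it). RefSeq windows were used for 5 members (Ccl8, Ccl12, Ccl3, Ccr1 and Ccr2). None of the 5 windows held either of 2 NF-κB patterns, the interferon-stimulated response element, TTCNNNGAA (STAT site) or TGANTCA (AP-1 site), on either strand. Of all windows, 1.63%, 5.56%, 3.44%, 8.3% and 7.81% held them in that order. The NF-κB patterns, 1 stricter and 1 looser in the middle bases, can overlap each other. Across the windows, Ccl3 had 63.6% of aligned bases in common with Ccl8 and 64.8% with Ccl12.

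The skin libraries held 40499078 to 56511276 counts and the node libraries 27599809 to 36428435. Ifnk, the transgene's product, was at 0 counts in the 3 WT skin libraries, at 5 to 14 in the 4 L libraries and at 6 and 0 in NL replicates 2 and 3; it was at 0 in all 12 node libraries. NL replicate 3, the shallower of the 2 NL libraries, was therefore not told apart from WT by Ifnk. Xist, the RNA of the inactive X chromosome in female cells, was at 0.319 CPM (counts scaled to the library size) or lower in NL replicate 3 and L replicate 6, between 78.9 and 179 CPM in the other 7 skin libraries and at most 1.46 CPM in the nodes; sex is not labelled per library. The tissues matched their labels: summed keratinocyte marker genes reached 8320 CPM or more in all skin libraries and at most 2.45 CPM in nodes, while summed T cell markers were at 2410 to 3110 CPM in nodes. The paper took lesional skin wherever a lesion was present, and nonlesional skin from the back and from areas like those of the lesions. The body site of each library is not in the labels, so site and lesion cannot be told apart in comparisons of L. The part of body site in the results for the members was not tested. Genes of other tissue parts also differed in L. Summed skeletal muscle genes were at 27.5 to 7620 CPM in L against 27200 to 40000 CPM in NL and WT, and summed hair shaft genes at 2580 to 7630 CPM against 1.64 to 3.68 CPM.

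In lesional skin the MIP group and Ccr2 were higher than in WT skin, while the MCP group was not told apart from WT. Of the 9 members 4 were called (adjusted p under 0.05, edgeR quasi-likelihood test, Benjamini-Hochberg over all 19101 genes), all higher in L: Ccl3, Ccl4, Ccl5 and Ccr2. Over all tested genes 43.1% were called and 23.0% were called higher. All 9 members had a positive log2 fold change, with a median of 1.23 against 0.06 over all genes. The libraries of L and WT did not overlap, with L higher, for the same 4 members, against 26.0% of all genes. Values below are CPM, scaled by TMM factors within the tissue, unless a sentence says otherwise.

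**Figure D1:**
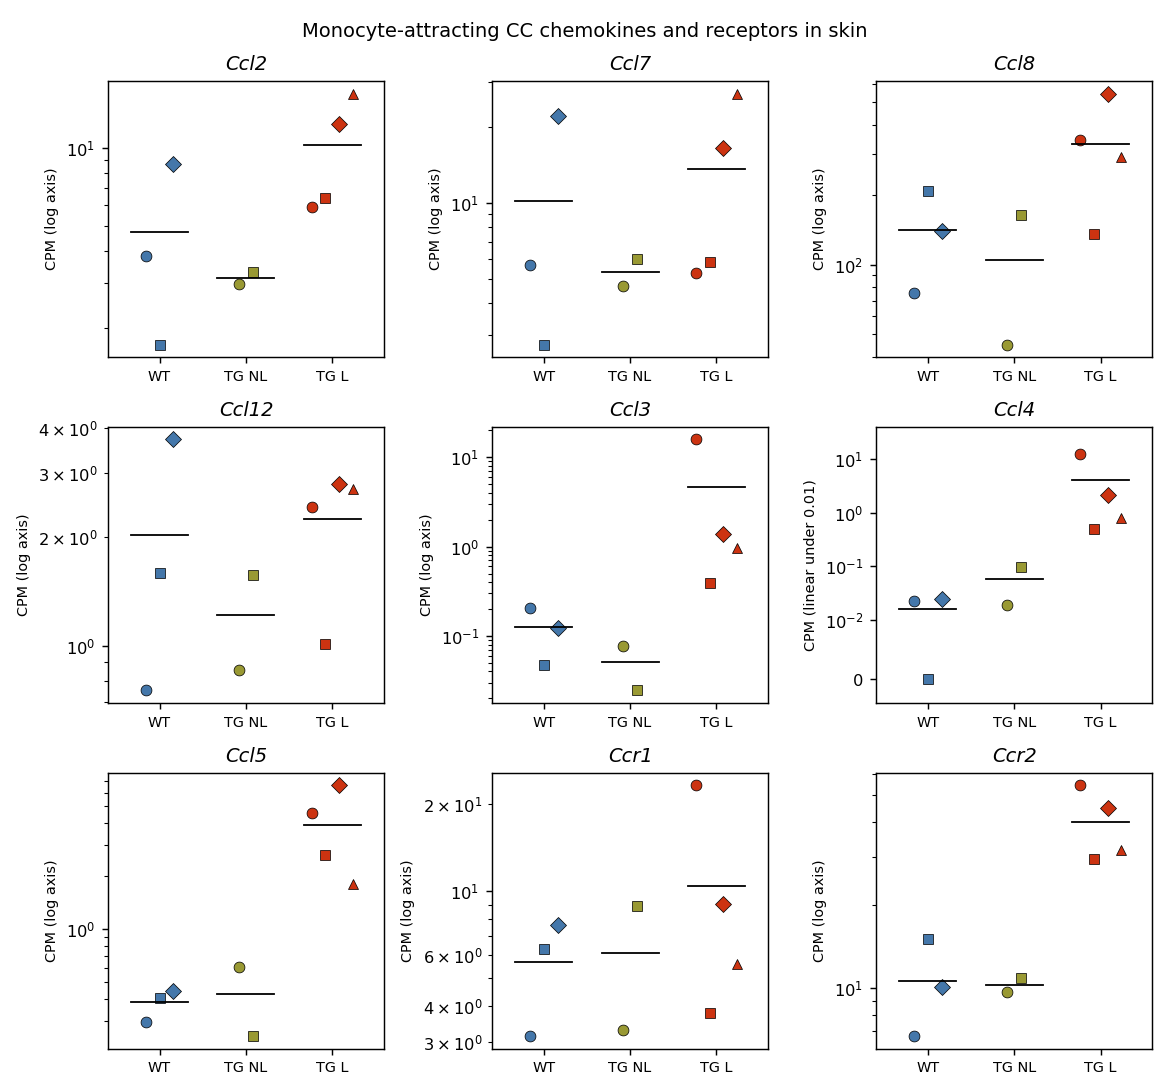
CPM of each member in the 9 skin libraries (log axes; the Ccl4 axis is linear under 0.01, since 1 library is at 0). Points are libraries in replicate order, with circle, square, diamond and triangle for the first to the last of a group, and bars are group means. In Ccl3, Ccl4, Ccl5 and Ccr2 all 4 L points lie above all WT and NL points; in Ccl2, Ccl7, Ccl8, Ccl12 and Ccr1 L and WT overlap.

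Ccl5, made mostly by T cells and NK cells, was at 4.61, 2.64, 6.61 and 1.80 CPM in L replicates 4 to 7, at 0.612 and 0.245 in NL replicates 2 and 3 and at 0.296, 0.404 and 0.445 in WT replicates 8 to 10. The lowest L library was thus well above the highest of the other 5, and NL and WT overlapped. The L mean of 3.91 ± 2.15 CPM (SD, n = 4) stood against 0.382 ± 0.0767 CPM (SD, n = 3) for WT skin, a log2 fold change of 3.35 (SE 0.55, 10.2-fold, adjusted p = 0.00174).

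Ccr2, a receptor of inflammatory monocytes, was at 54.5, 29.5, 45.2 and 31.7 CPM in L replicates 4 to 7. It was at 9.69 and 10.9 CPM in NL replicates 2 and 3 and at 6.68, 15.1 and 10.1 CPM in WT replicates 8 to 10. All L libraries were higher than the others and close to each other for this gene, and NL fell inside the WT range. The L mean was 40.2 ± 11.8 CPM (SD, n = 4) and the WT mean 10.6 ± 4.21 CPM (SD, n = 3), a log2 fold change of 1.92 (SE 0.32, 3.80-fold, adjusted p = 0.00188). In bulk tissue, more cells of a type and more RNA per cell cannot be told apart. Which cells of the lesion held the Ccr2 RNA was not tested.

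Ccl3 was at 15.9, 0.395, 1.37 and 0.955 CPM in L replicates 4 to 7, at 0.0765 and 0.0245 CPM in NL (4 and 1 counts) and at 0.205, 0.0475 and 0.124 CPM in WT (9, 2 and 5 counts). One library, L replicate 4, held most of the lesional Ccl3, but the lowest L library was still above the highest WT library. The log2 fold change against WT was 5.18 (SE 1.54, adjusted p = 0.0269), with group means of 4.66 ± 7.52 CPM (SD, n = 4) in L and 0.125 ± 0.0789 CPM (SD, n = 3) in WT. Without L replicate 4 it was 2.82 (adjusted p = 0.0132). The call was lost without WT replicate 8 (adjusted p = 0.0685), without WT replicate 9 (0.0882), without WT replicate 10 (0.0823) and with no filter on low counts (0.065).

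Ccl4, the neighbour and closest relative of Ccl3 among the members, followed the same order: 12.7, 0.493, 2.16 and 0.793 CPM in L replicates 4 to 7. In NL it was at 0.0191 and 0.0981 CPM (1 and 4 counts), and in WT at 0.0228, 0 and 0.0247 CPM (1, 0 and 1 counts). Replicate 4 was again far above the other L libraries; all L libraries were above those of NL and WT, which overlapped each other. WT was at or under the floor of 3 counts a library, so the mean of 4.04 ± 5.84 CPM (SD, n = 4) in L was at least 56.7-fold higher than that floor. This bound rests on replicate 4: without it the L mean came to 1.15 ± 0.889 CPM (SD, n = 3) and the bound to 16.1-fold. The edgeR adjusted p was 0.00834, and without L replicate 4 it was 0.00253.

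The MCP group gave wide ranges in both L and WT. Ccl2, the main Ccr2 ligand, was at 5.90, 6.41, 12.4 and 16.2 CPM in L replicates 4 to 7, at 2.96 and 3.31 CPM in NL and at 3.81, 1.73 and 8.68 CPM in WT. Replicates 6 and 7 were above all WT libraries, and replicates 4 and 5 were below WT replicate 10. The log2 fold change against WT was 1.11 (95% interval -0.17 to 2.39, adjusted p = 0.142), and without WT replicate 10 it was 1.88 (adjusted p = 0.031). Ccl7, a second Ccr2 ligand, was at 5.28, 5.82, 16.4 and 27.0 CPM in L, at 4.70 and 5.98 CPM in NL and at 5.68, 2.75 and 22.0 CPM in WT. It had the same high libraries as Ccl2, replicates 6 and 7 of L and replicate 10 of WT, and its log2 fold change was 0.43 (-1.41 to 2.27, adjusted p = 0.696).

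Ccl8 was at 345, 136, 545 and 290 CPM in L replicates 4 to 7, at 45.2 and 164 CPM in NL and at 75.6, 207 and 139 CPM in WT. All L libraries except replicate 5 were above the highest WT library, and replicate 5 lay inside the WT range. The log2 fold change was 1.23 (-0.15 to 2.61, adjusted p = 0.134). Ccl12, the mouse ligand of Ccr2 that lies next to Ccl8, was at 2.42, 1.01, 2.80 and 2.7 CPM in L, at 0.860 and 1.57 CPM in NL and at 0.753, 1.59 and 3.71 CPM in WT. Its highest value was in WT, and its log2 fold change was 0.15 (-1.10 to 1.40, adjusted p = 0.846).

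Ccr1, a receptor of neutrophils, monocytes and macrophages, was at 23.3, 3.80, 9.06 and 5.62 CPM in L replicates 4 to 7, at 3.31 and 8.88 CPM in NL and at 3.15, 6.32 and 7.64 CPM in WT. Only replicates 4 and 6 of L exceeded the other groups, and replicate 4 was the highest, as for Ccl3, Ccl4 and Ccr2. The log2 fold change against WT was 0.87 (-0.65 to 2.40, adjusted p = 0.321), and without L replicate 4 it was 0.11. The 2 receptors thus gave different results in the same libraries; the difference between them was not tested.

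L replicate 6 and NL replicate 3 lacked Xist. The comparison of L with WT was therefore repeated, after the data had been seen, in the 3 L and 3 WT libraries that had it. NL was not part of that fit. The same 4 members were called: Ccl5 at 2.96 (adjusted p = 0.00534), Ccr2 at 1.85 (0.0125) and Ccl3 at 5.47 (0.0427) on the log2 scale, and Ccl4, for which WT allows only a lower bound, with an adjusted p of 0.0221. Ccl2, Ccl7, Ccl8, Ccl12 and Ccr1 were again not called.

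Per kilobase of exon, the scale on which genes can be compared within a tissue, Ccl8 was by far the most abundant ligand of skin in every group. Its mean was 644 ± 330 CPM per kb (SD, n = 4) in L, 205 ± 165 (n = 2) in NL and 275 ± 129 (n = 3) in WT. In L the order went on with Ccl7 at 17.0 ± 12.8, Ccl2 at 8.99 ± 4.36, Ccl4 at 6.13 ± 8.84, Ccl3 at 6.08 ± 9.81, Ccl12 at 4.16 ± 1.55 and Ccl5 at 4.08 ± 2.24 CPM per kb, and each of these overlapped its neighbours in that order. The places of Ccl4 and Ccl3 rested on L replicate 4: without it they were the last of the ligands, at 1.74 ± 1.35 and 1.18 ± 0.635 CPM per kb (SD, n = 3), behind Ccl12 at 4.04 ± 1.87 and Ccl5 at 3.84 ± 2.68. In WT Ccl3 and Ccl4 stood at the bottom, at 0.164 ± 0.103 and 0.0240 ± 0.0208 CPM per kb. Of the receptors, Ccr2 was at 5.95 ± 1.75 and Ccr1 at 3.69 ± 3.12 CPM per kb in L, against 1.57 ± 0.623 and 2.01 ± 0.815 in WT. The ligands called higher in lesions were therefore the rarest ligands of WT skin, and after their rise they were still well under Ccl8.

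Against nonlesional skin of the same genotype, 3 members were higher in L: Ccl4, Ccl5 and Ccr2. Over all genes 25.0% were called and 13.2% were called higher. All 9 members again had a positive log2 fold change, with a median of 1.71 against 0.03 over all genes. L and NL did not overlap, with L higher, for 5 of 9 members (Ccl2, Ccl3, Ccl4, Ccl5 and Ccr2), against 24.7% of all genes. Both comparisons use the same L libraries, so they are not independent. Ccl5 was higher by 3.17 on the log2 scale (SE 0.64, adjusted p = 0.00925), Ccr2 by 1.97 (SE 0.37, adjusted p = 0.00736) and Ccl4 by 6.13 (SE 1.80, adjusted p = 0.0392). Without L replicate 4 the value for Ccl4 was 4.30 (adjusted p = 0.0172).

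Ccl3 missed the threshold against NL, with a log2 fold change of 6.40 (SE 2.03, adjusted p = 0.0524), and passed it without L replicate 4 (4.04, adjusted p = 0.0139), without L replicate 5 (6.78, adjusted p = 0.0309) and with DESeq2 (6.50, adjusted p = 0.00034). Ccl2 was at 1.71 (95% interval 0.17 to 3.24, adjusted p = 0.0972) and Ccl8 at 1.65 (0.01 to 3.29, adjusted p = 0.126). Both also passed with DESeq2, with adjusted p of 0.0167 and 0.0219. Ccl7 (1.35, -0.86 to 3.56), Ccl12 (0.88, -0.60 to 2.37) and Ccr1 (0.78, -0.97 to 2.53) had intervals that include 0, with adjusted p of 0.335, 0.350 and 0.489. The NL group has 2 libraries: without NL replicate 2 only Ccl5 was called, and without NL replicate 3, the library with no Ifnk counts, no member was. Ccl4 was also lost without L replicate 6 and without any 1 of the WT libraries.

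**Figure D2:**
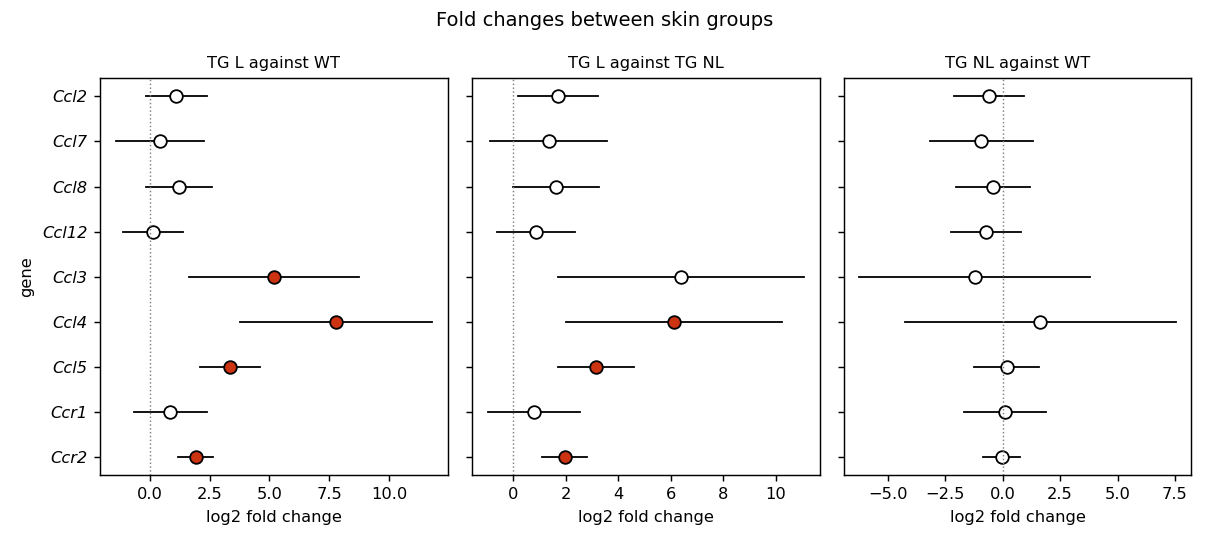
Log2 fold change of each member in the 3 skin comparisons. Points are estimates of the edgeR fit, lines their 95% intervals, and filled points have an adjusted p under 0.05. Ccl4, Ccl5 and Ccr2 are filled in both panels that involve L, Ccl3 is filled against WT, and no point is filled for NL against WT. Ccl4 points against WT are fitted values over WT libraries of 0 or 1 count.

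Nonlesional TG skin was not told apart from WT skin for any member. None of the 9 was called by edgeR, nor was any of the 19101 genes (0%). At an unadjusted p under 0.05 edgeR gave 0 members and 1465 genes (7.67%), and DESeq2 called 0 members and 62 genes. The largest differences belonged to the rarest genes, Ccl4 at 1.64 (95% interval -4.24 to 7.53) and Ccl3 at -1.21 (-6.24 to 3.81), both from at most 9 counts a library; the Ccl4 value, over WT libraries of 0 or 1 count, is no bound. Ccr2 was at -0.04 (-0.86 to 0.77), Ccr1 at 0.09 (-1.70 to 1.89) and Ccl5 at 0.19 (-1.23 to 1.60). Ccl2, Ccl7, Ccl8 and Ccl12 had estimates of -0.60, -0.93, -0.43 and -0.73. No member's NL and WT libraries were separated, against 18.6% of all genes with NL higher and 16.3% with NL lower. With 2 NL libraries, differences within these intervals were not detectable.

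Cell markers moved in L beside the called members, and their part in the result was not tested. Of 8 neutrophil markers, 7 were tested and 4 were higher in L than in WT, among them S100a9 (5.67) and Camp (5.63) with the largest and Cxcr2 (4.85) and S100a8 (3.09) with the smallest log2 fold changes. Their sum was 574, 141, 76.0 and 65.0 CPM in L replicates 4 to 7, 12.2 to 13.1 CPM in NL and 10.3 to 20.4 CPM in WT, with at most 2 of the 8 genes at 0 in a library. Replicate 4, with the most Ccl3, Ccl4, Ccr1 and Ccr2, thus had the highest sum of these marker genes as well. Which cells of the lesion made their RNA was not tested. Replicate 5, second in that sum, had the lowest Ccl3, Ccl4, Ccr1 and Ccr2 of the L libraries.

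Of 8 T cell markers, 5 were higher in L than in WT and none was lower, with Cd8b1 (5.27) and Cd8a (4.85) at the top and Cd4 (1.86) and Lck (1.59) at the low end of the log2 fold changes. Their sum was 58.9, 74.1, 79.5 and 33.8 CPM in L replicates 4 to 7, 36.8 to 48.1 CPM in NL and 28.2 to 40.1 CPM in WT, with no gene at 0. L replicate 7, with the lowest Ccl5 of the lesions, had the lowest T cell sum, inside the WT range, and replicate 6 had the highest of both. Replicate 4 had more Ccl5 than replicate 5 but a lower T cell sum. Of 6 NK cell markers 5 were tested, and 1 was higher (Gzma, 4.25) and 1 lower (Prf1, -1.82).

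Markers of other skin cells moved as well. In L against WT, 4 of 8 adipocyte genes were lower (median -1.92; summed level 832 to 4340 CPM in L, 8090 to 11600 CPM in WT), as were 3 of 5 endothelial markers (median -1.01; 89.4 to 202 against 231 to 345 CPM). Of 7 keratinocyte markers 3 were higher (median 0.48; 8320 to 24900 against 9670 to 12000 CPM), and of 7 dendritic cell markers 1 was higher and 2 were lower (median 0.42; 39.0 to 80.2 against 61.1 to 93.7 CPM). No gene of these 4 lists was at 0 in a skin library. Of 6 fibroblast markers Dcn was lower (-0.89) and of 6 B cell markers Blk was higher (2.29), while none of 5 mast cell markers and none of 5 red cell genes was called. The part of these cell types in the results for the members was not tested.

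None of the 12 monocyte and macrophage markers was called between L and WT, and their median log2 fold change was -0.24. The values ran from -1.02 (Mrc1) to 0.66 (Ms4a7), and 4 of the 12 were positive. Their sum overlapped between all skin groups: 542 to 1690 CPM in L, 629 to 923 CPM in NL and 771 to 1840 CPM in WT, with no gene at 0. Lyz2, lysozyme of myeloid cells, was at a mean of 580 CPM in L and 618 CPM in WT (log2 fold change -0.09, adjusted p = 0.882), and Ly6c2, a marker of classical monocytes, at 17.2 and 13.6 CPM (0.34, adjusted p = 0.559). Against NL, 11 of the 12 had a positive log2 fold change, with a median of 0.36, and 1 was called higher, Ms4a7 (1.44, adjusted p = 0.0262). Lyz2 and Ly6c2 are named here after their values were seen.

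**Figure D3:**
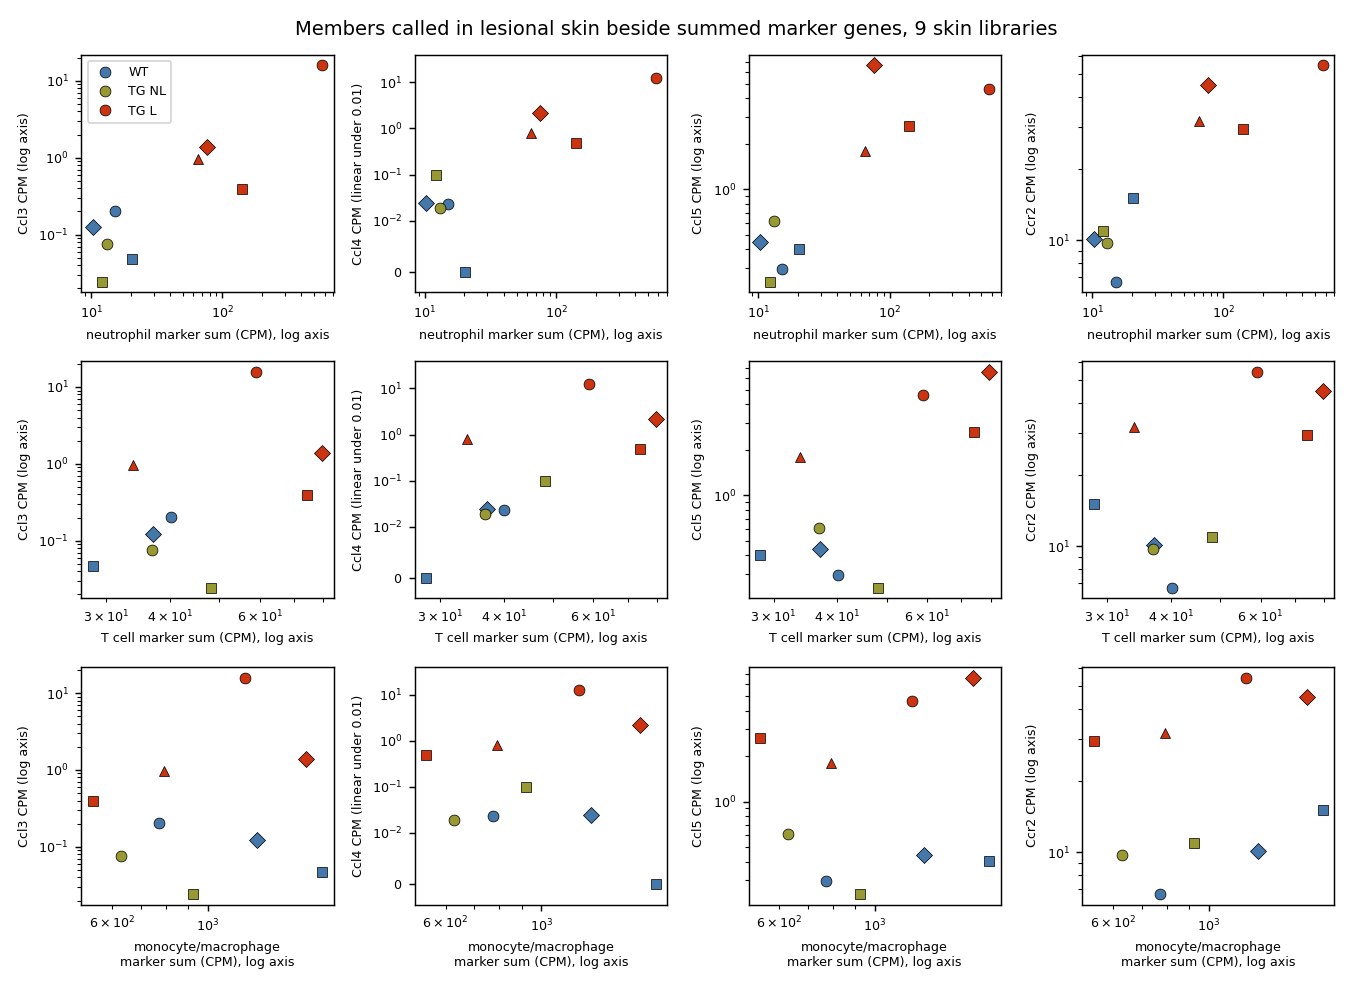
CPM of the 4 members called in L against WT (columns, vertical axes) beside the summed CPM of neutrophil, T cell and monocyte/macrophage markers (rows, horizontal axes) in the 9 skin libraries, on log axes except that Ccl4 is linear under 0.01. Neutrophil sums separate L (65.0 to 574 CPM) from the rest (10.3 to 20.4 CPM), T cell sums do so except for 1 L library at 33.8 CPM, and monocyte/macrophage sums overlap.

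The rest of the CC family moved in part with the members in L. Of 14 other CC ligands 13 were tested against WT: 6 were higher and 1 lower, with a median of 0.40. The largest were Ccl17 (3.35) and Ccl1 (3.32), which bind Ccr4 and Ccr8, and the smallest Ccl25 (0.70), a Ccr9 ligand, and Ccl24 (-1.94), an eotaxin of the eosinophil receptor Ccr3. Of 12 other CC and atypical receptors 5 were higher and 2 lower. Ccr7, which guides dendritic cells to nodes, was among those that rose, by 2.61 (adjusted p = 0.00266). Ackr4 (-0.94) and Ackr2 (-1.18), scavengers of chemokines, were the 2 that fell. Against NL, 2 of 13 other ligands were higher (Ccl19 at 2.59 and Ccl20 at 1.60), 2 receptors were higher, Ccr7 (2.36) among them, and 3 lower, with Ackr4 at -1.35 and Ackr2 at -1.64 as the smallest.

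Other genes that feed monocytes and macrophages gave 1 called higher and 1 lower among 8 against WT. Cx3cl1, the ligand of patrolling monocytes, rose by 0.72 and Il34, the keratinocyte-made ligand of the macrophage receptor Csf1r, fell by 1.29 on the log2 scale; against NL Il34 alone was called and fell by 1.80. Of 10 genes that carry the signal inside the cell, Ptk2b (0.35) was the 1 called against WT, and against NL Rac2 (1.00) was higher and Grk2 (-0.54), which desensitizes receptors, lower. Their median against WT was 0.16.

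Among 15859 protein-coding genes of skin, the closest profile to each member was found by the root mean square (RMS) difference of centred log2 CPM over the 9 libraries, a description of libraries that share tissue makeup. Ccl12 had the closest match, A630001G21Rik (RMS 0.16), then Msr1 (0.22), the macrophage scavenger receptor. Ccr2 was closest to Smim3 (0.24) and Lst1 (0.27), Ccl5 to Slpi (0.25) and Has3 (0.43), and Ccr1 to Lilr4b (0.39) and Rsad2 (0.40). Ccl2 was closest to Nxpe4 (0.37) and Kcnj10 (0.38), Ccl7 to Samd3 (0.49) and Kcnj10 (0.50), and Ccl8 to H4f16 (0.42) and Hhipl1 (0.49). Ccl3 with Nmu (0.56) and Krt2 (0.57) and Ccl4 with Tmprss11d (0.72) and Nmu (0.79) had the largest RMS. They also varied most, with SDs of 2.49 and 2.83 over libraries. The SDs of the other members ran from 0.8 (Ccl12) to 1.71 (Ccl5), so RMS values of different members are not on 1 scale.

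The lymph nodes showed another order of levels. Per kilobase, Ccl5 was the highest member in all 4 groups, at 95.9 ± 34.4 CPM per kb in WT NoTx, 48.1 ± 4.04 in WT UV, 87.5 ± 21.5 in TG NoTx and 64.7 ± 7.56 in TG UV (SD, n = 3 each). Ccr2 followed at 7.21 ± 2.56, 8.04 ± 0.569, 9.34 ± 2.06 and 8.74 ± 2.24 CPM per kb in the same order, and Ccl8 at 3.61 ± 1.55, 3.06 ± 1.24, 4.45 ± 1.62 and 4.57 ± 0.737. Ccl8, the top ligand of skin, thus came behind Ccl5 and Ccr2 here. Ccl12 and Ccr1 came next with means of 0.836 to 1.61 and 0.666 to 0.958 CPM per kb. Ccl2, Ccl7, Ccl3 and Ccl4 were near the limit of detection, with 1 to 22 counts a library. Tissues were counted and scaled in separate tables, so the skin and node levels were set side by side with no test.

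**Figure D4:**
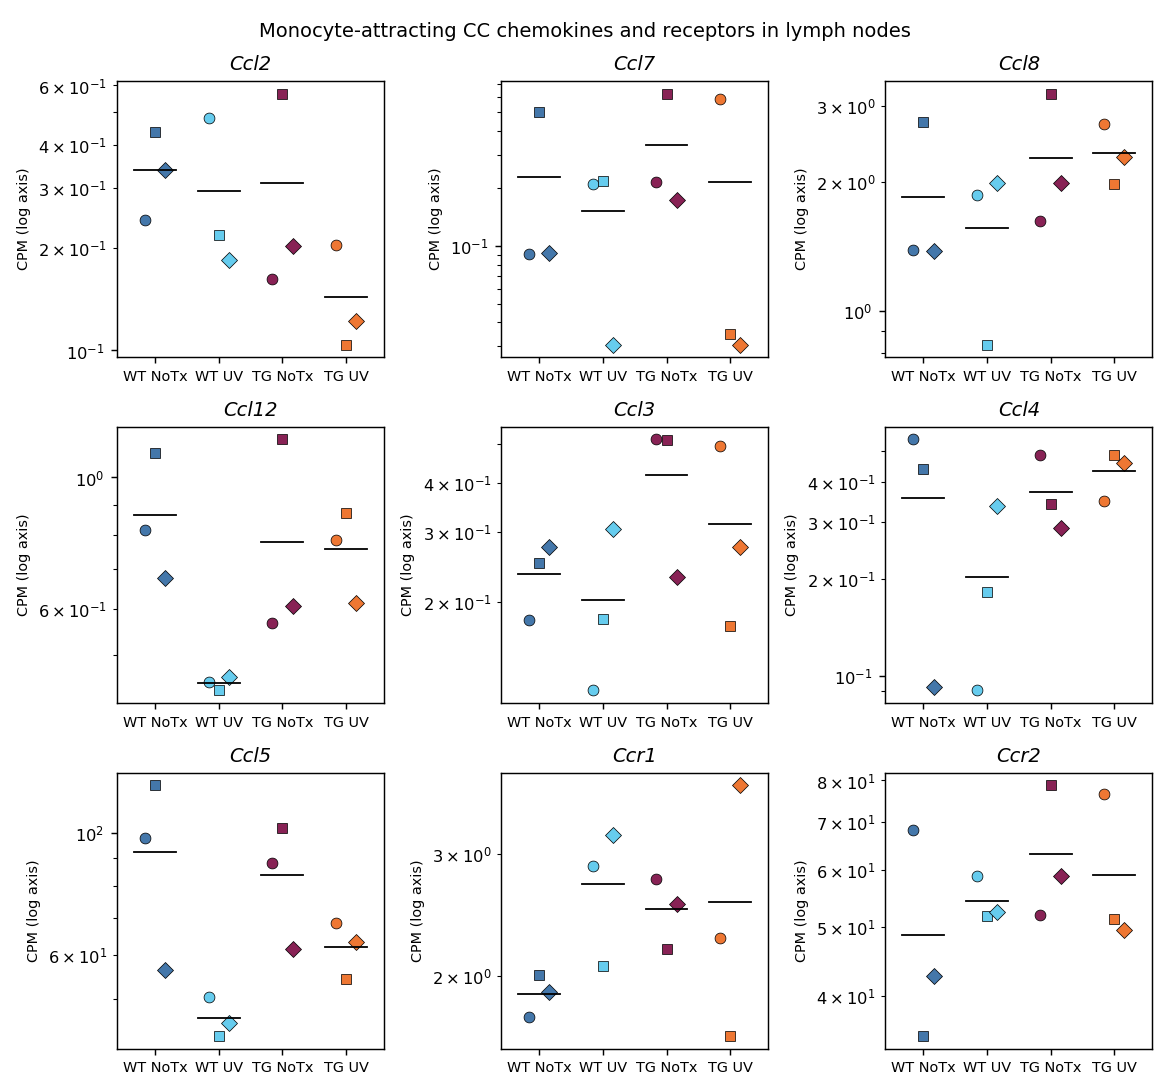
CPM of each member in the 12 node libraries (log axes). Points are libraries in replicate order, with circle, square and diamond for the first to the last of a group, and bars are group means. In Ccl5 and Ccl12 the 3 WT UV points lie below the 3 WT NoTx points, and in Ccr1 above them; elsewhere UV and NoTx points of a genotype overlap.

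After UVB no member passed the test in WT nodes, where 4.98% of the 16173 genes did; 2 of 9 (Ccl5 and Ccl12) had UV libraries all below the NoTx libraries, against 17.3% of all genes, and 1 (Ccr1) all above, against 19.8%. At an unadjusted p under 0.05 edgeR gave the same 2 members, Ccl5 and Ccl12, against 26.3% of all genes, and DESeq2 called Ccl5. Ccl5 was at 97.9, 122 and 56.5 CPM in NoTx replicates 1 to 3 and at 50.4, 42.8 and 45.3 CPM in UV replicates 7 to 9. The UV libraries were close together and NoTx replicate 3 was near them. The log2 fold change was -0.99 (SE 0.25, 95% interval -1.56 to -0.43, adjusted p = 0.0505), just above the threshold, and DESeq2 gave an adjusted p of 0.00111.

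Ccl12 was at 0.815, 1.10 and 0.676 CPM in WT NoTx replicates 1 to 3 and at 0.451, 0.436 and 0.460 CPM in WT UV replicates 7 to 9, from 12 to 35 counts. These libraries did not overlap, and the log2 fold change was -0.94 (-1.75 to -0.12, adjusted p = 0.142). Ccr1 was at 1.75, 2.01 and 1.90 CPM in NoTx and at 2.88, 2.07 and 3.19 CPM in UV, with UV replicate 8 only just above the NoTx range (0.53, -0.11 to 1.16, adjusted p = 0.273). Ccr2 was at 68.2, 35.2 and 42.7 CPM in NoTx and at 58.8, 51.8 and 52.4 CPM in UV, a log2 fold change of 0.16 (-0.39 to 0.71, adjusted p = 0.732). The UV libraries of Ccr2 lay within the NoTx range. Ccl2, Ccl7, Ccl8, Ccl3 and Ccl4 had estimates between -0.81 and -0.19 and overlapping libraries.

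In TG nodes UVB gave no called member, and edgeR called none of 16173 genes (0%; 1507, or 9.32%, at an unadjusted p under 0.05, none of them a member; DESeq2 called 134 genes and no member). Ccl5 was at 88.1, 102 and 61.7 CPM in NoTx replicates 4 to 6 and at 68.6, 54.3 and 63.4 CPM in UV replicates 10 to 12. The groups overlapped, and the log2 fold change was -0.44 (-0.99 to 0.12, adjusted p = 0.623). Ccr2 was at 51.9, 78.8 and 58.8 CPM in NoTx and at 76.6, 51.3 and 49.5 CPM in UV (-0.09, -0.64 to 0.45). Ccl2 gave the largest estimate, -1.08 (-2.42 to 0.27), from 3 to 20 counts a library. The remaining estimates were between -0.60 and 0.21, and no member's libraries were separated, against 6.23% of all genes higher and 7.11% lower.

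Genotype made no called difference in the nodes either. Without UVB, edgeR called none of the 9 members and no gene (0%; 549, or 3.39%, at an unadjusted p under 0.05, no member among them; DESeq2 called 2 genes, no member). Ccr1 libraries were separated, with TG at 2.76, 2.19 and 2.54 CPM above WT at 1.75, 2.01 and 1.90 CPM, 1 of 9 members against 5.52% of all genes; its log2 fold change was 0.40 (-0.24 to 1.04). Ccl3 had the largest estimate, 0.82 (-0.32 to 1.96), from 6 to 19 counts. The other 7 members had estimates between -0.15 (Ccl12) and 0.56 (Ccl7), with intervals that include 0.

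After UVB, edgeR again called no member and no gene between TG and WT (0%; 1131 genes, or 6.99%, at an unadjusted p under 0.05, no member among them; DESeq2 called 21 genes, no member). TG libraries were all above WT libraries for 3 of 9 members, against 5.39% of all genes: Ccl5 (0.43, -0.13 to 0.99), Ccl12 (0.74, -0.08 to 1.57) and Ccl4 (1.07, -0.25 to 2.39). Ccl2 had an estimate in the other direction, -1.01 (-2.38 to 0.35), and the remaining 5 members lay between -0.09 (Ccr1) and 0.64 (Ccl3), all with overlapping libraries. Ccl4 was at 0.349, 0.487 and 0.459 CPM in TG UV replicates 10 to 12 and at 0.0901, 0.182 and 0.337 CPM in WT UV replicates 7 to 9, from 3 to 15 counts. WT UV libraries also enter the UV comparison in WT, in which Ccl5 and Ccl12 were low. The difference of the UV effect between genotypes was tested as an interaction and called no member and no gene (0%; 881 genes, or 5.45%, at an unadjusted p under 0.05, no member; DESeq2 called 5 genes, no member). It was 0.56 for Ccl5 (-0.23 to 1.34, adjusted p = 0.848) and 0.89 for Ccl12 (-0.24 to 2.02, adjusted p = 0.848). Ccl4 had 1.01 (-0.80 to 2.83) and Ccl2 -0.88 (-2.71 to 0.94), and the remaining 5 members lay between -0.49 (Ccr1) and 0.27 (Ccl8).

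**Figure D5:**
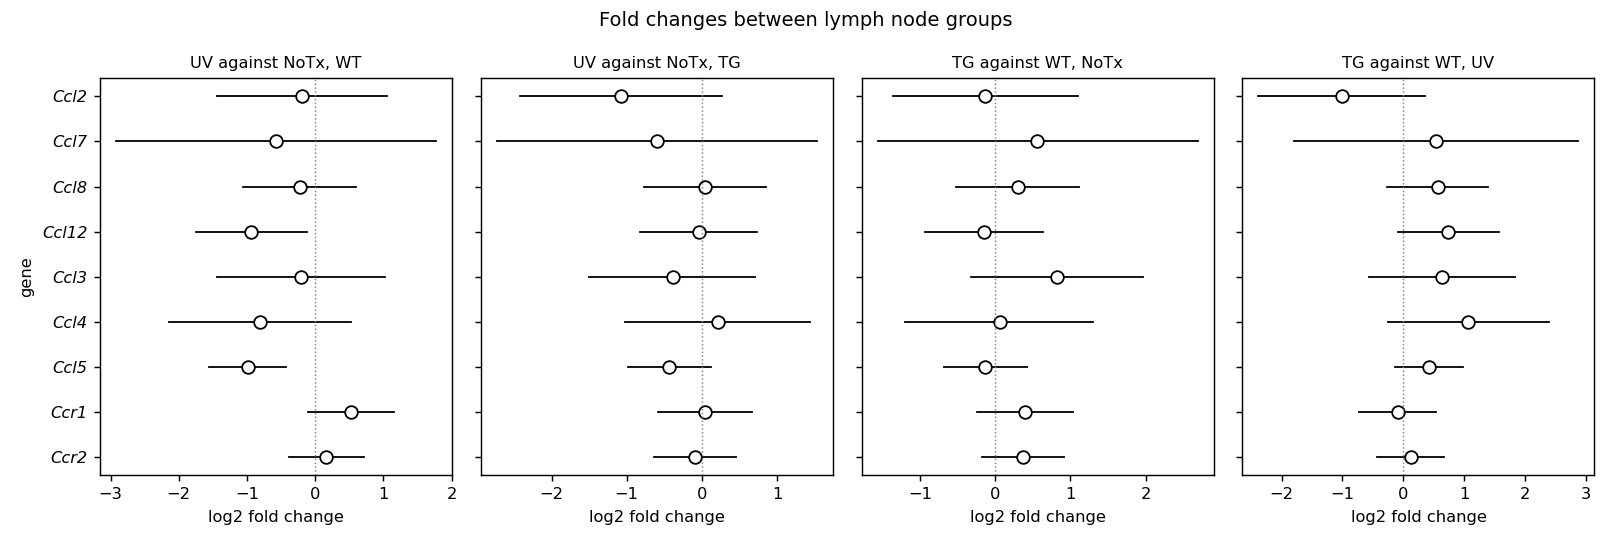
Log2 fold change of each member in 4 node comparisons. Points are edgeR estimates and lines 95% intervals; open points have an adjusted p of 0.05 or more, and all points are open. The intervals of Ccl5 and Ccl12 for UV against NoTx in WT lie below 0.

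In WT nodes none of 8 T cell markers was called (median -0.24), and their sum was 3040 to 3080 CPM in NoTx and 2410 to 2780 CPM in UV. None of 6 NK cell markers was called (median -0.21), with sums of 163 to 226 CPM in NoTx and 139 to 192 CPM in UV. The T cell sums were thus separated in the direction of Ccl5, and the NK cell sums overlapped; their part in the Ccl5 values was not tested. None of 12 monocyte and macrophage markers was called (median -0.34; sums of 362 to 544 and 340 to 484 CPM).

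Other cell marker lists held called genes in WT nodes, all of them lower after UVB. Of 5 red cell genes 3 were lower (median -2.98, with Hba-a2 at -3.01 and Alas2 at -2.74), and their sum was 121 to 261 CPM in NoTx and 10.8 to 39.5 CPM in UV. Glycam1, a product of high endothelial venules, was lower by 1.34 on the log2 scale, 1 of 4 markers of these vessels (median -0.95; sums of 7.42 CPM or more in NoTx and 4.78 to 7.39 CPM in UV). Of 5 endothelial markers Pecam1 was lower (-0.43; list median -0.58; sums of 274 to 324 against 199 to 237 CPM). Of 6 fibroblast markers Lum was lower (-2.14; list median -1.38; sums of 46.1 to 66.1 against 13.9 to 37.9 CPM), and of 2 adipocyte genes tested Fabp4 was lower (-3.09). None of the 6 neutrophil markers tested was called, with a median of -1.98, all 6 values negative and sums of 5.01 to 8.41 against 3.34 to 5.26 CPM. The sums of red cell, venule, endothelial and fibroblast genes were thus separated in the direction of Ccl5 and Ccl12, those of the venule genes only just. Of the 4 venule genes, Fut7 went the other way (0.76, edgeR adjusted p = 0.116). Of all single genes 17.3% were separated in the direction of Ccl5 and Ccl12. The part of these sums in the Ccl5 and Ccl12 values was not tested.

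In the same WT comparison, among 9 tested of the other CC ligands Ccl9 was lower (-1.99, adjusted p = 0.0495). Among 12 other receptors Ccr4 was higher (1.12, adjusted p = 0.0304) and Ccr7, the receptor of naive T cells, lower (-0.43, adjusted p = 0.0261). In TG nodes no gene was called.

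In the nodes the closest of 13108 protein-coding profiles over 12 libraries were Klrb1f and Dock5 for Ccr2 (RMS 0.16 each) and Fscn1 and Nr1h3 for Ccl5 (0.18 each). Ccr1 was closest to Ppp1r35 (0.17), Ccl12 to Mrvi1 (0.22), Ccl2 to Ctsk (0.25), Ccl3 to Olfr432 (0.26), Ccl8 to 1700056E22Rik (0.29), Ccl4 to Atg4c (0.39) and Ccl7 to Caskin1 (0.47). The members' own SDs over these libraries were small, from 0.33 (Ccr2) to 1.06 (Ccl7).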

How the data were processed

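The authors trimmed paired-end reads of polyA RNA, aligned them to GRCm38 and estimated expected counts per gene with RSEM. The submitters' processing notes list cutadapt 4.8, FastQC 0.11.8, STAR 2.7.8a, RSEM 1.3.3 and MultiQC 1.20; the annotation release is not given in the sources used here. The deposited expected counts, 1 table per tissue, were rounded to whole numbers and used as such. No table had a column outside the sample list.

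Groups came from the labels. Each tissue had 1 fit over its libraries, made with edgeR 4.0.16 (limma 3.58.1, R 4.3.3): filterByExpr with the groups, TMM factors, a robust quasi-likelihood fit, 95% intervals, and Benjamini-Hochberg adjustment over all genes tested, with a threshold of 0.05. NL, with 2 libraries, shared the spread of the other skin groups. DESeq2 1.42.0 was the alternative tool; other scaling, no filter, the compared groups alone, Xist as a covariate, scaling without muscle, fat and hair genes (skin) and each library left out were also tried. The fit in L and WT libraries with over 50 CPM of Xist and the search for TATAAA were added after the data were seen.

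All 9 members enter every comparison, with full values for those called or separated and ranges for the others. From gene lists, at most 4 called genes were named, the 2 largest and the 2 smallest log2 fold changes, and for each member the 2 genes nearest in profile. Members and lists were chosen with earlier results of these data known. CPM per kb divides CPM by the length of the gene's merged exons. The fit was also run on simulated counts, for L against WT skin and for UV in WT nodes only. Genes were changed there only if their expected counts were well above the floor in all libraries. The simulation therefore does not cover members near the floor in a group, or the NL comparisons. Where no library of the second group of a comparison held over 3 counts, a fold bound was taken over a floor of 3 counts a library. The floor did not enter the fits. Intervals and floors cover counting error only where they rest on reads, since there were no molecular identifiers. Sequences were RefSeq promoters (GRCm38.p6) and the study's primers, read with Python 3.11.15 and Biopython 1.88; plots were made with matplotlib 3.10.9. A result on 1 other receptor gene is not reported here.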

Additional observations from a re-analysis of the deposited data

Results flagged for a closer look

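Within the 4 L libraries, replicate 4 stood apart from the others for 2 of the 9 members by Dixon's ratio, the gap to the nearest library over the whole range, at the 95% critical value. The ratio was 0.937 for Ccl3, with 15.9 CPM in replicate 4 and at most 1.37 CPM in the others, and 0.863 for Ccl4, with 12.7 CPM against at most 2.16 CPM. The ratio was taken on CPM and not on the log2 scale of the fold changes, on which it was not computed. Chance flags about 1 in 20 such groups only if the values are normally distributed, which was not checked. The 2 genes are measured in the same libraries.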

How the results depend on the processing

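No paired analysis was possible because the groups compared within a tissue share no replicate numbers. These are running sample numbers, so they do not show whether libraries of different groups came from the same mice. Whether L and NL skin came from the same TG mice is not in the labels. The 72 member fold changes were recomputed 1159 times. With other settings 362 values kept direction and side of the threshold, 5 turned direction, 5 newly passed and 4 no longer passed; with 1 library left out the numbers were 709, 56, 6 and 12. The number of members called moved from 3 to 6 with DESeq2 for L against NL, and from 0 to 1 (Ccl5) with DESeq2 for UV in WT nodes. With 1 library left out it ran from 0 to 4 and from 0 to 1 in these comparisons, and from 3 to 4 for L against WT. The 5 values that turned came with Xist as a covariate: Ccr1 in NL against WT (-0.18), Ccl8 for UV in TG nodes (-0.06), Ccr1 in TG against WT after UV (0.04), and the interaction of Ccl7 (0.02) and Ccl3 (0.20); the cause was not tested. Ccl4 in L against NL missed the threshold with no filter (adjusted p = 0.0822), the compared groups alone (0.0898) and the Xist covariate (0.0713).

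With 1 library left out the direction turned only for fold changes that were not called. In L against WT the range was -0.14 to 1.69 for Ccl7 and -0.24 to 0.93 for Ccl12. In NL against WT it was -1.0 to 0.18 for Ccl2, -1.38 to 0.34 for Ccl7, -1.67 to 0.22 for Ccl8, -1.26 to 0.05 for Ccl12, -0.63 to 0.65 for Ccl5, -0.82 to 0.64 for Ccr1 and -0.29 to 0.29 for Ccr2. For UV in WT nodes it was -0.75 to 0.03 for Ccl2, -0.97 to 0.71 for Ccl7, -0.46 to 0.18 for Ccl8, -0.67 to 0.06 for Ccl3 and -0.03 to 0.45 for Ccr2. For UV in TG nodes it was -3.23 to 0.17 for Ccl7, -0.16 to 0.37 for Ccl8, -0.24 to 0.36 for Ccl12, -0.37 to 0.27 for Ccr1 and -0.32 to 0.09 for Ccr2. For TG against WT without UV it was -0.89 to 0.18 for Ccl2, -0.22 to 1.84 for Ccl7, -0.04 to 0.71 for Ccl8, -0.56 to 0.06 for Ccl12, -0.40 to 0.48 for Ccl4 and -0.39 to 0.12 for Ccl5. For TG against WT after UV it was -2.07 to 1.05 for Ccl7, -0.47 to 0.17 for Ccr1 and -0.09 to 0.24 for Ccr2. For the interaction it was -2.63 to 0.77 for Ccl7, -0.14 to 0.62 for Ccl8 and -0.64 to 0.27 for Ccl3.

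Over all genes, calls in L against NL moved from 4782 to 3156 with the compared groups alone, 1470 without NL replicate 2 and 1182 without NL replicate 3. Calls for UV in WT nodes moved from 805 to 1972 with DESeq2, 2431 with the compared groups alone and 215 with the Xist covariate, and ran from 0 (without WT UV replicate 8) to 2644 (without TG UV replicate 12); the adjusted p of Ccl5 ran from 0.0418 to 0.196 with 1 library left out. Where edgeR called 0 genes, DESeq2 called 62 in NL against WT, 134 for UV in TG nodes, 2 and 21 for genotype without and after UV, and 5 for the interaction. DESeq2 gave no adjusted p in WT nodes for Ccl2, Ccl7, Ccl3 and Ccl4, which had 1 to 18 counts a library there.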
